A study of Mus musculus with 2 samples.

Results

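Interferon-stimulated genes (ISGs) were read in primary aortic vascular smooth muscle cells (VSMCs) of wildtype mice, cultured for 5 days and profiled by single-cell RNA sequencing. The 34 genes were chosen by name, and 33 of them were matched to the 31053 genes of the count tables. *Mx2* was not analysed here. The 2 libraries, biological replicates 1 and 2, were made with 10x Genomics 3' chemistry and are both of 1 condition, untreated wildtype cells in full medium, so that the comparisons below are between cells of the same cultures. The cells of a replicate came from several culture wells, and per the study's methods a cell preparation usually pooled the aortae of several mice. A barcode was kept as a cell when it held at least 3000 UMIs (unique molecular identifiers, each marking 1 captured mRNA molecule) from at least 300 genes, with mitochondrial UMIs under 20%, which left 4866 cells in replicate 1 and 6824 in replicate 2. The median was 22234.5 UMIs per cell in replicate 1 and 16310 in replicate 2, and 9 barcodes occurred in both libraries.

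Interferons are secreted by cells that sense viral nucleic acids or their own misplaced DNA and RNA. Type I interferons bind a receptor whose Janus kinases phosphorylate transcription factors of the STAT family, among them STAT2, which join IRF9 in a complex that binds the interferon-stimulated response element (ISRE) in promoters of ISGs. The products of these genes bind viral RNA, modify proteins with the ubiquitin-like ISG15, block viral entry and budding and load peptides onto MHC class I molecules, and endothelial cells and VSMCs of the vessel wall can both respond.

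The promoters of 4 members that later results turn on are shown, each as the 200 bases before the annotated start site. The letters are from RefSeq on GRCm38.p6, 5′ to 3′ on the strand of the gene, and capitals mark matches to the ISRE core GAAANNGAAA or its reverse complement TTTCNNTTTC, where N is any base. *Ifit1* lies at chr19:34640689-34640888 on the + strand, *Ifit3* at chr19:34583329-34583528 on the + strand, *Isg15* at chr4:156200819-156201018 on the - strand and *Gbp3* at chr3:142559844-142560043 on the + strand.
Ifit1: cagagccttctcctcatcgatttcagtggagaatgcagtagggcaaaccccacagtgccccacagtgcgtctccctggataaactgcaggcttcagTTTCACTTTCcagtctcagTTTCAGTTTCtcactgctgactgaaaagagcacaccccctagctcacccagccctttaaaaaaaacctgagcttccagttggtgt
Ifit3: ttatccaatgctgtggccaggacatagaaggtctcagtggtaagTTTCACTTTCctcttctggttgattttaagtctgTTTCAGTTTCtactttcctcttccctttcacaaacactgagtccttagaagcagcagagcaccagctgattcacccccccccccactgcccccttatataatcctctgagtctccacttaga
Isg15: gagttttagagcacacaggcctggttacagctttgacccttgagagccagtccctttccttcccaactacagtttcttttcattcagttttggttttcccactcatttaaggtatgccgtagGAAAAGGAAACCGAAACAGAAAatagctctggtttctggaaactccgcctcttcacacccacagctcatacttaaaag
Gbp3: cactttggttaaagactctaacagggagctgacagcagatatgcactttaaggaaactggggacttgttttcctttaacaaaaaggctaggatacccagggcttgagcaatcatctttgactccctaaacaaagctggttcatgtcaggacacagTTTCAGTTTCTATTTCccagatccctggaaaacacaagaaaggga
The *Ifit1* and *Ifit3* promoters each held 2 separate matches, *Gbp3* held 2 that overlap and *Isg15* held 3 that overlap. Over windows of 300 bases from 250 before to 50 after the start site, 12 of the 26 members with a window held the core (46.2%), against 3.99% of 27025 genes, and 8 members held at least 2 matches (30.8%), against 0.266% of genes. All 4 promoters shown held the ISRE core. *Irf7*, *Ifit2*, *Psmb8* and *Psmb9*, which later results also name, held it in no window. A further annotated window of *Gbp3*, at chr3:142560106-142560405, held none either. The core TTCNNNGAA of the gamma-activated site was in 7 of the 26 members (26.9%) and in 9.55% of genes. A match is a run of letters and not a measured binding site. Several members are neighbours in the genome (GRCm38, GENCODE): *Ifit2*, *Ifit3*, *Ifit3b* and *Ifit1* lie in a cluster at chr19:34550694-34650009, *Parp14*, *Dtx3l* and *Parp9* at chr16:35832874-35972605, and *Psmb9*, *Tap1* and *Psmb8* at chr17:34181987-34201454.

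Cells were divided by rule. Endothelial cells had at least 2 UMIs in at least 2 of *Pecam1*, *Cdh5*, *Cldn5* and *Gja4* and numbered 102 in replicate 1 and 141 in replicate 2. Sox9-positive cells had at least 2 UMIs of *Sox9*, a transcription factor of cartilage, and numbered 799 and 1859. Of the remaining cells, Myh11-high cells had at least 5 UMIs of *Myh11*, the smooth muscle myosin heavy chain (431 and 697), and Myh11-low cells at most 1 (3241 and 3808). Of the marker lists, endothelial markers summed to 2538 and 2740 CPM (UMIs of a gene per 1000000 UMIs of the same cells) in endothelial cells and to at most 53.6 CPM elsewhere, and contractile genes to 26734 and 27427 CPM in Myh11-high cells against 8415 and 5025 CPM in Myh11-low cells. A list of modulated smooth muscle genes did not separate these classes, at 4880 and 3791 CPM in Myh11-high cells and 4340 and 3964 CPM in Myh11-low cells. A list of 10 macrophage and leukocyte markers summed to 71.5 and 46.5 CPM in Myh11-low cells, with 10 of 10 above 0, and to 9.34 and 4.25 CPM in Myh11-high cells, with 4 and 6 of 10 above 0. Markers of dendritic and lymphoid cells summed to at most 0.253 CPM in any class.

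The summed level of the 33 genes was lowest in Myh11-high cells, at 862 CPM in replicate 1 and 485 CPM in replicate 2. It was 1246 and 1156 CPM in Myh11-low cells, 1193 and 884 CPM in Sox9-positive cells and 1692 and 1611 CPM in endothelial cells. Most of this came from *Ifitm3*, whose product blocks fusion of viruses with the cell membrane, at 931 and 808 CPM in Myh11-low cells. *Bst2*, coding for tetherin, which holds budding viruses at the cell surface, followed at 57.2 and 109 CPM, and *Isg15* at 49.7 and 28.4 CPM. At the other end were *Mx1*, a dynamin-like GTPase, which had no UMI outside Myh11-low cells and 0.0403 and 0.0329 CPM there, and *Oas1a*, *Oasl1*, *Rsad2*, *Cmpk2* and *Ifi44*, which were below 0.5 CPM in Myh11-low cells. The 3' libraries count molecules and not read coverage, so that transcript length does not enter these levels.

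**Figure D1:**
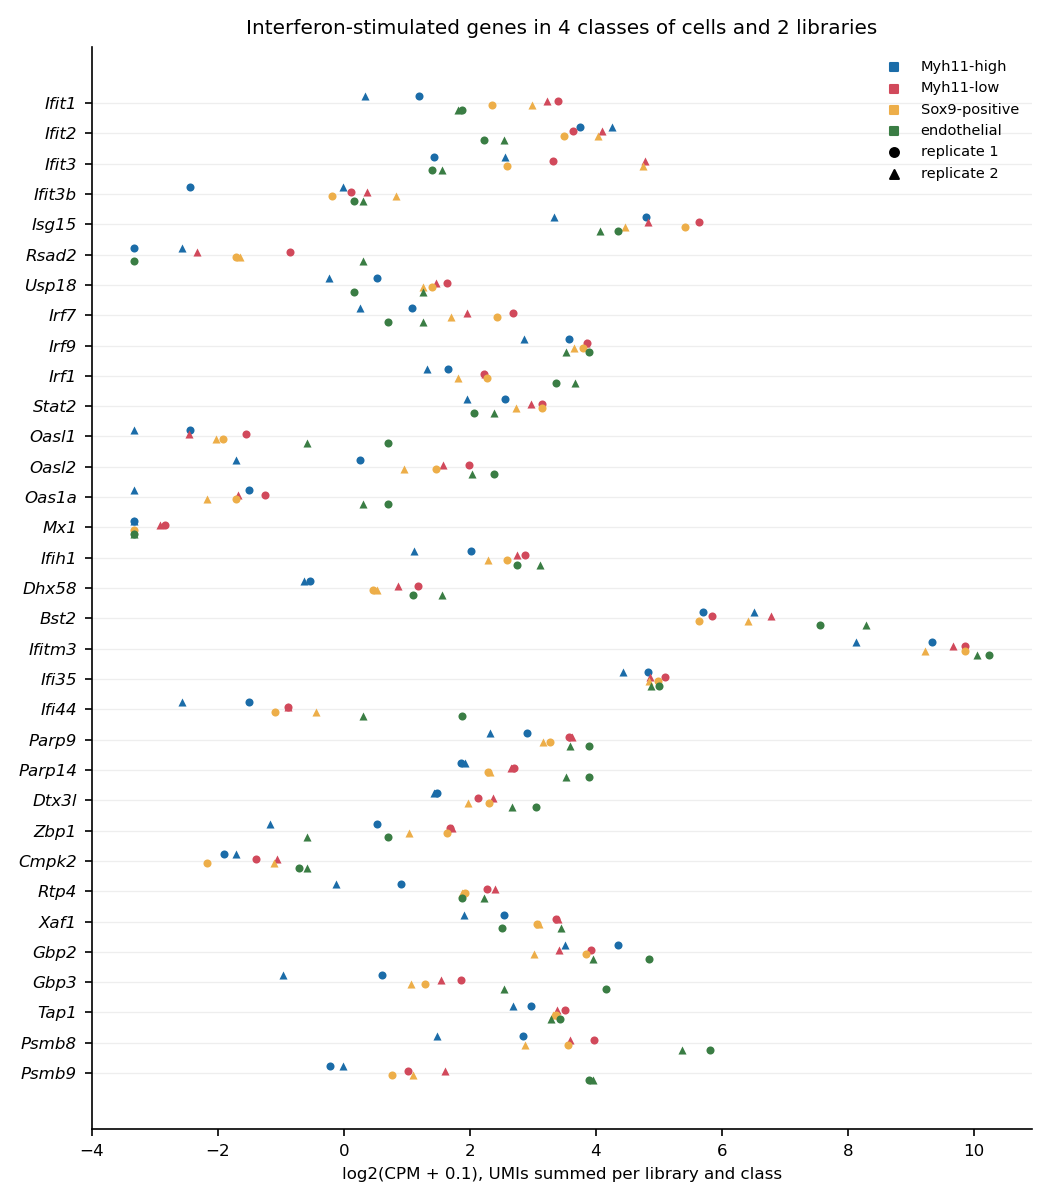
Level of each of the 33 genes as log2(CPM + 0.1), with UMIs summed per library and class; circles are replicate 1 and triangles replicate 2. *Ifitm3* lies far above the other genes in every class. *Bst2* is next, but close to *Isg15* in Myh11-low cells of replicate 1, at 57.2 against 49.7 CPM. The endothelial points lie to the right for *Psmb8*, *Psmb9*, *Bst2* and *Irf1*.

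The first comparison asked whether ISGs differ between VSMCs with few and with many *Myh11* UMIs. *Ifit1*, whose product binds foreign RNA lacking host cap marks, was at 2.19 and 1.17 CPM in Myh11-high cells of replicates 1 and 2 and at 10.4 and 9.21 CPM in Myh11-low cells. Both Myh11-low values were above both Myh11-high values. *Ifit1* rose by a log2 fold change of 2.49 ± 0.36 (SE; edgeR's quasi-likelihood test over 13668 genes and 2 libraries, adjusted p = 0.0222 by Benjamini-Hochberg), and its adjusted p ranged from 1.63e-06 to 0.115 over 20 alternatives and passed in 14. *Rtp4*, coding for a receptor-transporting protein, was at 1.77 and 0.823 CPM in Myh11-high and at 4.74 and 5.15 CPM in Myh11-low cells, again without overlap (log2 fold change 1.87 ± 0.37, adjusted p = 0.0478, 0.000548 to 0.223 over 20 alternatives, of which 12 passed). These 2 were the only members of the 30 that passed the filter on low counts to reach the threshold, and 0.958% of all genes were called higher. No member was called lower, and DESeq2 called 0 lower. In either direction 19 of the 30 had an unadjusted p under 0.05 in edgeR's test, beside 2629 of 13668 genes. With the library as a block, which compares the classes within each culture, 20 of the 30 members rose and 11.5% of all genes were called higher. DESeq2 called 10 members higher, beside 511 of 13668 genes. Neither *Ifit1* nor *Rtp4* was called without Myh11-low cells of either replicate, endothelial cells of either replicate or Myh11-high cells of replicate 2. Without Sox9-positive cells of either replicate *Ifit1* was called and *Rtp4* was not. Each of these fits leaves a class with 1 sum, and fewer of all genes were called higher in each. With 1 sum left out, the median log2 fold change of the members was between 0.77 and 1.60. The values of 28 of 30 members were higher in Myh11-low cells, with a median log2 fold change of 1.09 against 0.0152 over all genes tested.

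Among IFIT genes, *Ifit3* was at 2.61 and 5.76 CPM in Myh11-high cells and 9.89 and 27.4 CPM in Myh11-low cells, a log2 fold change of 2.07 ± 0.80 (edgeR, adjusted p = 0.225, and 0.00346 with the block). *Ifit3* also differed between the libraries, by 1.46 on the log2 scale within Myh11-low cells. *Ifit3* and its neighbour *Ifit3b* are paralogues, and their transcripts of 1745 and 2000 bases shared 1663 identical bases, 81.2% of those aligned. Their last 500 bases shared 48.3%, but ends cut from transcripts of unequal length can lie out of register. That share does not show whether reads separate the genes. *Ifit2*, of the same family, did not follow *Ifit3*, at 13.3 and 19.0 CPM in Myh11-high cells and 12.3 and 17.0 CPM in Myh11-low cells.

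*Isg15* was at 27.5 and 9.94 CPM in Myh11-high cells and at 49.7 and 28.4 CPM in Myh11-low cells. It was higher in Myh11-low cells of the same library each time (log2 fold change 0.99 ± 0.55, edgeR adjusted p = 0.396, and 0.00893 with the block). *Usp18*, the protease that removes ISG15 and dampens receptor signaling, had a log2 fold change of 1.37 ± 0.40 (adjusted p = 0.124, and 0.0198 with the block). Of the transcription factors, *Irf7*, which amplifies interferon responses, was at 2.02 and 1.10 CPM in Myh11-high cells and at 6.36 and 3.78 CPM in Myh11-low cells (log2 fold change 1.64 ± 0.47, adjusted p = 0.120, and 0.00417 with the block). *Stat2* also passed with the block (0.71 ± 0.28), whereas *Irf9* and *Irf1* did not in either test (0.53 ± 0.26 and 0.69 ± 0.26).

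The RNA sensors *Ifih1* and *Dhx58* and the Z-nucleic acid sensor *Zbp1* passed with the block, with log2 fold changes of 1.14 ± 0.34, 1.70 ± 0.35 and 1.85 ± 0.61. So did *Parp9*, *Dtx3l* and *Parp14*, coding for ADP-ribosyltransferases and an E3 ligase, at 0.90 ± 0.24, 0.74 ± 0.25 and 0.72 ± 0.20. *Parp9* and *Dtx3l* overlap on opposite strands, and how strand was used in counting is not given in the sources used here. The immunoproteasome subunits *Psmb8* (1.44 ± 0.48) and *Psmb9* (1.48 ± 0.32) and the peptide transporter *Tap1* (0.55 ± 0.18) passed with the block as well, and *Psmb9* and *Tap1* overlap in the same way. The guanylate-binding protein *Gbp3* passed (1.74 ± 0.67), and its relative *Gbp2*, at 20.4 and 11.2 CPM in Myh11-high cells and 15.1 and 10.5 CPM in Myh11-low cells, did not. *Bst2* did not pass in either test (0.14 ± 0.43), and its 2 libraries differed more than the classes did.

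The macrophage and leukocyte list moved with this contrast, as given above. In an alternative added after the data were seen, cells with at least 2 UMIs of that list were left out. Then 2 members were called higher without the block, beside 165 of 13591 genes, and 23 with it, beside 1800. The median log2 fold change was 1.05. Another alternative added after seeing the data thinned each cell to 3000 UMIs and kept in the contrast the cells left with 0 UMIs of 12 of the members (set A, defined below). The other 21 members had a median log2 fold change of 0.79 at full depth. Of these, 0 were called higher without the block, beside 122 of 13488 genes, and 10 with it, beside 1568. In all cells of both classes the same 21 had a median of 0.90, with 1 called without the block and 15 with it. Cells left with 0 after thinning can hold set-A UMIs at full depth. Set-A genes chose these cells, so that calls of set-A genes in them are not read as a result. With the block this setting is among the alternatives that *Ifit1* passed above, and it is no separate support for *Ifit1*.

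**Figure D2:**
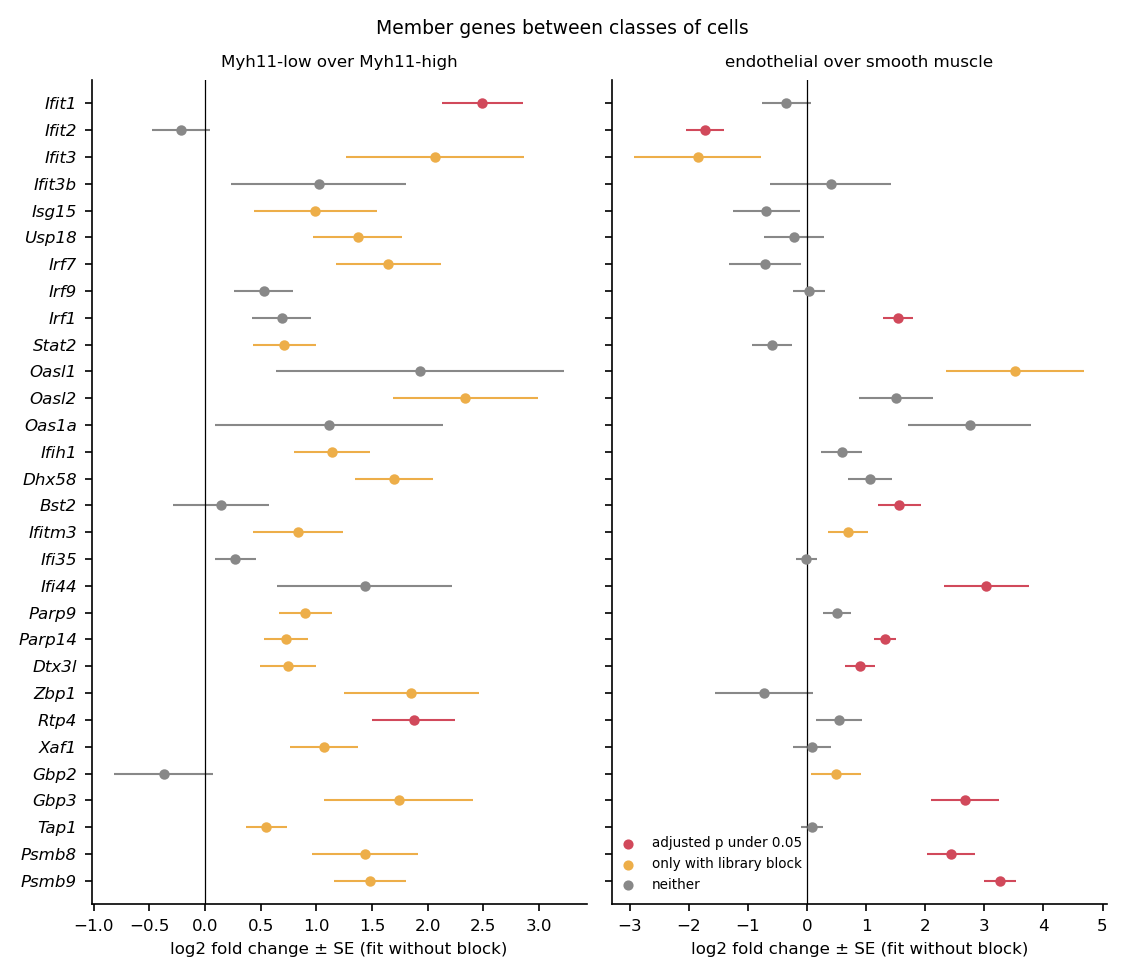
Log2 fold change ± SE of the 30 tested genes in Myh11-low over Myh11-high cells and in endothelial over smooth muscle cells, from edgeR without a block; red passed an adjusted p of 0.05 and yellow passed only with the library block. In the left panel 28 of 30 points lie above 0, and in the right panel *Psmb9*, *Ifi44*, *Gbp3* and *Psmb8* are red and above 2 while *Ifit2* is red and below 0.

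In other genes of the pathway, no transcript of a ligand was found. The 20 interferon genes on the list had 0 UMIs in the 4866 cells of replicate 1 and in the 6824 cells of replicate 2, which allows a share of cells with a UMI of up to 0.0617% and 0.0440%. Of the receptor genes, *Ifngr2*, a chain of the interferon gamma receptor, fell in Myh11-low over Myh11-high cells (121 and 125 CPM against 81.6 and 83.3 CPM, log2 fold change -0.65 ± 0.10, edgeR adjusted p = 0.0231). Of 39 tested genes in a list of other interferon-induced genes, 3 were higher, and 24 were higher and 1 lower with the block. The 3 were *Phf11d* (log2 fold change 1.15 ± 0.14, adjusted p = 0.0159), the immunity-related GTPase *Igtp* (1.52 ± 0.28, adjusted p = 0.0397) and *Gbp9*, which was at 0 in Myh11-high cells and at 0.42 and 0.44 CPM in Myh11-low cells. None of 14 sensing genes, 12 genes of MHC class I presentation and 8 negative regulators passed without the block, and 4, 4 and 1 passed with it, 1 of these as lower.

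Sox9-positive cells were compared with Myh11-low cells. *Ifit1* was at 5.01 and 7.86 CPM in Sox9-positive cells and at 10.4 and 9.21 CPM in Myh11-low cells, and *Isg15* was at 42.5 and 21.9 CPM against 49.7 and 28.4 CPM. *Psmb8* was at 11.7 and 7.23 CPM against 15.5 and 12.0 CPM. No member passed edgeR's quasi-likelihood test, of 0% of all genes called, with 0 members at an unadjusted p under 0.05, beside 167 of 13668 genes. The block and DESeq2 called no member, with 6 and 0 members at an unadjusted p under 0.05, beside 876 and 176 of 13668 genes. Values were lower in Sox9-positive cells for 28 of 30 members, with a median log2 fold change of -0.29 against -0.00081 over all genes. With only the Sox9-positive cells that had at most 1 *Myh11* UMI, this median was -0.21. Without cells holding at least 2 leukocyte UMIs it was -0.30. In Sox9-positive cells the macrophage and leukocyte list summed to 32.5 and 8.15 CPM, against 71.5 and 46.5 CPM in Myh11-low cells. For *Ifit1* the log2 fold change was -0.62 ± 0.32 (SE) without the block and -0.60 ± 0.25 with it (edgeR adjusted p = 0.766 with the block). For *Isg15* it was -0.29 ± 0.54 and -0.31 ± 0.17 (adjusted p = 0.907 with the block). Both genes were lower in Sox9-positive cells within each library.

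Endothelial cells were compared with the mean of Myh11-high and Myh11-low cells, and genes of antigen processing were among those that rose. Levels of Sox9-positive cells are given beside these, but that class did not enter the contrast. *Psmb9* was at 14.8 and 15.4 CPM in endothelial cells and between 0.758 and 2.94 CPM in the 3 smooth muscle classes. Every endothelial value was above every smooth muscle value. *Psmb9* rose by a log2 fold change of 3.27 ± 0.27 over the mean of Myh11-high and Myh11-low cells (edgeR's quasi-likelihood test, Benjamini-Hochberg adjusted p = 0.000466). *Psmb8* was at 56.1 and 41.1 CPM against 2.67 to 15.5 CPM (2.44 ± 0.40, adjusted p = 0.00726). *Tap1*, also a member of antigen processing, was at 10.7 and 9.71 CPM against 6.31 to 11.3 CPM. It did not pass with or without the block (0.09 ± 0.19). In all, 8 of the 30 tested members were higher, against 12.3% of all genes, and 1 was lower, against 10.5%. The others that rose were *Ifi44* (log2 fold change 3.04 ± 0.72), *Gbp3* (2.67 ± 0.57), *Bst2* (1.56 ± 0.37), *Irf1* (1.54 ± 0.25), *Parp14* (1.32 ± 0.19) and *Dtx3l* (0.90 ± 0.25). *Irf1*, a transcription factor that is induced through the gamma-activated site, was at 10.2 and 12.6 CPM in endothelial cells and between 2.40 and 4.72 CPM in smooth muscle cells. *Ifi44* rested on 7 and 2 UMIs in endothelial cells and passed the filter on low counts through them, so that its call is not independent of that filter.

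The member that fell was *Ifit2*, at 4.59 and 5.71 CPM in endothelial cells and between 11.2 and 19.0 CPM in smooth muscle cells (log2 fold change -1.72 ± 0.32, edgeR adjusted p = 0.0116). *Ifit1* was at 3.57 and 3.43 CPM in endothelial cells, between the values of Myh11-high and Myh11-low cells, and *Isg15* was at 20.4 and 16.6 CPM. With the block, 11 members were higher, against 17.4% of all genes, and 2 were lower, *Ifit2* and *Ifit3*, against 18% of all genes. The additional ones that rose were *Oasl1*, *Ifitm3* and *Gbp2*. *Oasl1* rested on 3 and 1 UMIs in endothelial cells and was between 0 and 0.242 CPM in smooth muscle classes. It too passed the filter on low counts through the endothelial cells. *Gbp2* had a log2 fold change of -0.0758 without the endothelial cells of replicate 1, in the fit without the block. Without endothelial cells of replicate 1 the median log2 fold change of the members was 0.59, and without those of replicate 2 it was 0.50. Over all genes it was -0.11 and -0.080. Without Myh11-low cells of replicate 1 it was 0.64 for the members and -0.028 over all genes. Fewer members were called higher in each of these fits, and fewer of all genes as well. *Ifit2* was not called lower without either of the endothelial sums, which leaves that class with 1 sum. Of the list of 12 genes of MHC class I presentation, 8 rose and 0 fell, among them the heavy chain *H2-K1* (470 and 477 CPM against 34.4 to 43.9 CPM, log2 fold change 3.36 ± 0.09) and *Tapbp*, coding for tapasin (71.3 and 66.2 CPM against 17.0 to 23.6 CPM, 1.52 ± 0.14). Of 39 other interferon-induced genes 15 rose and 0 fell, and of 9 receptor and kinase genes 4 rose and *Ifngr2* fell. Of 14 sensing genes 4 rose. *Aim2*, the DNA sensor of the inflammasome, was at 9.68 and 15.4 CPM in endothelial cells and at most 0.12 CPM in smooth muscle classes. It also passed the filter on low counts through the endothelial cells. Of 8 negative regulators 1 rose and 2 fell. Endothelial cells were the shallowest class, with medians of 14629 and 10250 UMIs against 14484 to 26139 UMIs in smooth muscle classes.

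The libraries were compared within a class, without a test, among genes with at least 5 CPM in either. In Myh11-low cells, 1 of 19 such members, *Ifit3*, was more than 2-fold higher in replicate 2, against 1.68% of all genes, and 0 were more than 2-fold lower, against 1.65%. In Myh11-high cells *Ifit3* was again higher (1 of 13, against 1.41%), and *Isg15*, *Ifitm3* and *Psmb8* were lower in replicate 2 (3 of 13, against 4.6%). *Ifit3* was also higher in Sox9-positive cells of replicate 2, at 26.9 CPM against 5.91 CPM, while *Ifit1* differed by less than 2-fold between the libraries in each of the 4 classes.

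The next question was whether all cells carry these transcripts or a few cells carry most of them. *Ifit1* had a UMI in 9.78% of Myh11-low cells in replicate 1 (exact Clopper-Pearson 95% interval 8.78% to 10.9%) and in 7.80% in replicate 2 (6.97% to 8.70%). These intervals and all others here cover counting error only. If every cell had drawn its UMIs at 1 common rate in proportion to its depth, 20.7% and 13.4% of cells would have had one. The transcripts were thus held by fewer cells, and the highest cell had 53 *Ifit1* UMIs in replicate 1 and 37 in replicate 2. The endothelial gene *Pecam1* had a UMI in 0.895% and 0.840% of the same cells, against 99.0% and 99.3% of endothelial cells. *Pecam1* is a gene of the endothelial rule, so that its shares follow in part from that rule and are no independent background. Median depths were 20819 and 14484 UMIs in Myh11-low cells.

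*Isg15* had a UMI in 35.7% and 21.2% of Myh11-low cells where 1 rate would give 63.0% and 34.9%, and a highest cell of 137 and 66 UMIs. *Ifit3* was in 11.7% and 23.4% of cells where 1 rate would give 19.8% and 34%. *Rtp4* stood closer to 1 rate, with 7.84% and 6.30% of cells against 10.2% and 7.81%. *Ifit2* was close to it, with 22.4% and 22.0% of cells against 23.9% and 23.1% and at most 5 UMIs in a cell. *Irf9* was likewise at 25.5% and 18.8% against 27.2% and 19.9%. *Ifitm3* was in 99.0% and 96.6% of cells, nearly all, so that its share shows little of its spread. In replicate 1, 16 of the 30 tested members (53.3%) were found in less than 0.9 times the share of cells that 1 rate would give, against 16.4% of all genes, and in replicate 2 7 of 30 (23.3%), against 14.6%. The median overdispersion of the members, the variance beyond counting relative to the squared mean, was 1.71 and 1.45, against 0.199 and 0.202 over all genes. It was 0.474 and 0.345 for *Ifit2*, 0.155 and 0.263 for *Ifitm3*, 33.5 and 25.8 for *Ifit1* and 11.7 and 10.8 for *Isg15*.

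**Figure D3:**
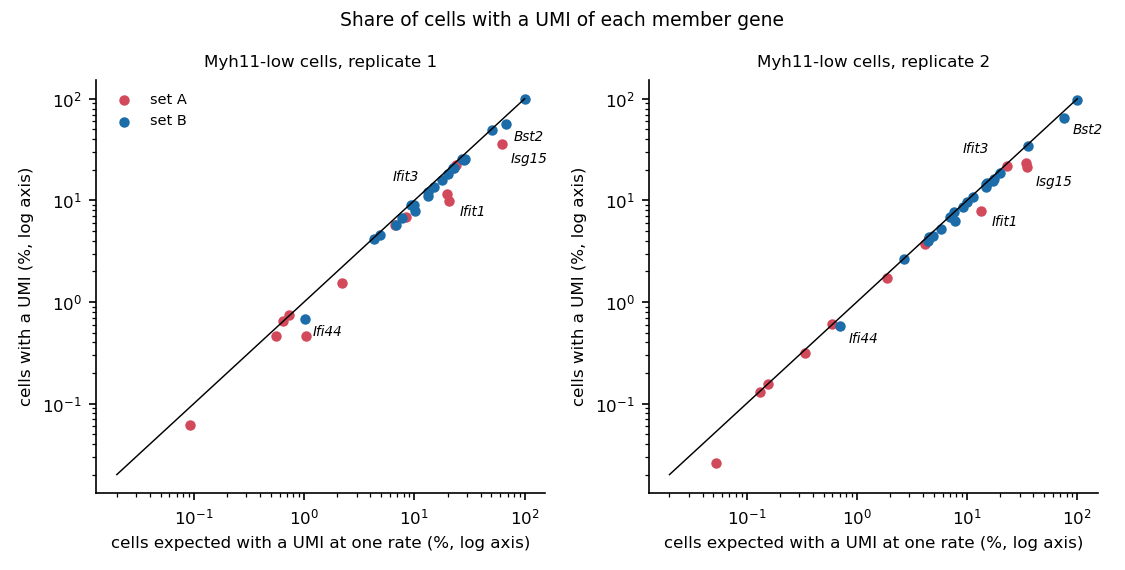
Share of Myh11-low cells with a UMI of each member (vertical, percent, log axis) against the share expected if all cells drew at 1 rate (horizontal, percent, log axis), with the line of equality; red marks set A and blue set B. *Isg15*, *Ifit1* and *Ifit3* lie below the line in both libraries, at 35.7% against 63.0%, 9.78% against 20.7% and 11.7% against 19.8% in replicate 1.

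To ask whether the same cells hold several ISGs, the members were divided by name into set A, 13 genes of the IFIT, ISG15, viperin, MX and OAS groups of which 12 were measured, and set B, the other 21. Set B without *Bst2* and *Ifitm3*, whose counts outweigh the rest, was read across Myh11-low cells ordered by their set-A UMIs. In cells with 0 set-A UMIs it was at 120 CPM in replicate 1 and 115 CPM in replicate 2. It was at 137 and 134 CPM in cells with 1 set-A UMI, at 161 and 156 CPM with 2, at 203 and 187 CPM with 3 to 4 and at 324 and 300 CPM with 5 or more. The level of set B was higher in each bin than in the one before in both libraries. Cells with 5 or more were 10.5% and 6.36% of the class and held 60.4% and 41.8% of its set-A UMIs, 25.2% and 15.8% of its set-B UMIs and 12.9% and 7.87% of all its UMIs. Cells with 0 were 41.7% and 46.6% of the class and still held 25.4% and 30.5% of the set-B UMIs, against 35.1% and 39.5% of all UMIs. The bins are ordered by set-A UMIs, so that their shares of set-A UMIs follow from the ordering. The bins differ in depth, from medians of 18145 and 12565 UMIs in cells with 0 to 24270 and 17450 UMIs in cells with 5 or more, and in cycling markers, at 656 and 532 CPM with 0 and 525 and 379 CPM with 5 or more.

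**Figure D4:**
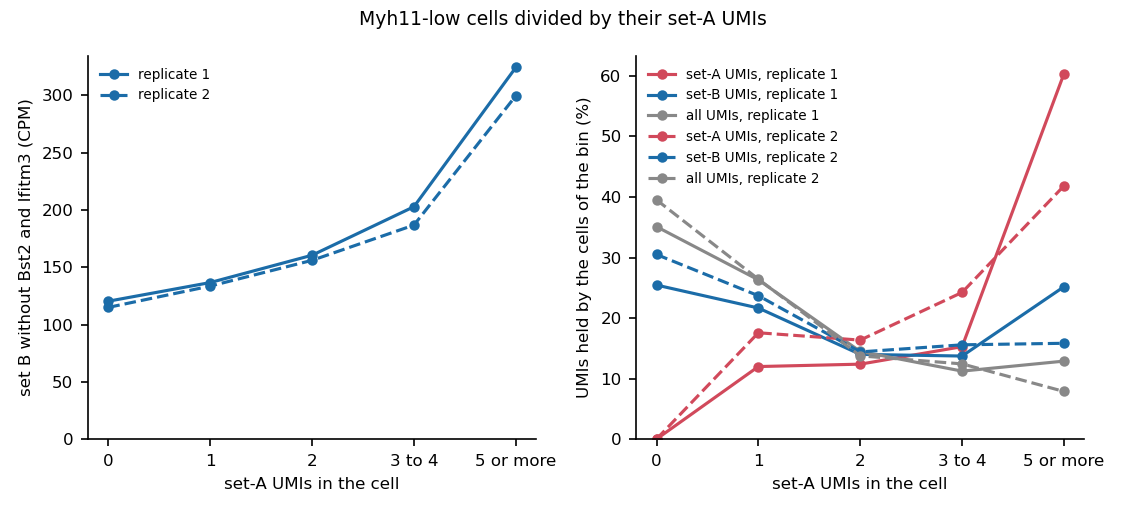
Myh11-low cells in bins of their set-A UMIs: left, summed level of set B without *Bst2* and *Ifitm3* (CPM); right, percent of set-A, set-B and all UMIs of the class held by each bin, solid for replicate 1 and dashed for replicate 2. Set B goes from 120 to 324 CPM and from 115 to 300 CPM, and the last bin holds 25.2% and 15.8% of set-B UMIs; the set-A shares follow from the ordering of the bins.

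For a comparison at equal depth, each cell was thinned to 3000 UMIs in 1 random draw. Cells with at least 2 set-A UMIs in that draw were called set-A-positive. They were 148 of 3241 Myh11-low cells in replicate 1 (4.57%, interval 3.87% to 5.34%) and 155 of 3808 in replicate 2 (4.07%, 3.47% to 4.75%), where 1 rate would give 3.14% and 3.02%. Positive cells were 3.38% and 3.44% of Sox9-positive cells and 2.32% and 1.15% of Myh11-high cells. The interval of Myh11-high cells was 1.12% to 4.23% in replicate 1 and 0.497% to 2.25% in replicate 2. Cells of 1 culture are no replicates, and the difference between the classes was not tested. In endothelial cells 1 cell was positive in each library, 0.980% (interval 0.0248% to 5.34%) and 0.709% (0.0180% to 3.89%). A new draw among the Myh11-low cells under 10% mitochondrial UMIs, a part of the same cells, gave 155 and 177 positive cells. The intervals leave out this spread between draws.

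The set-B genes, which did not choose the cells, were then compared between the positive Myh11-low cells and the 2679 and 3090 Myh11-low cells with 0 set-A UMIs after thinning. *Irf7* was at 4.48 and 2.57 CPM in cells with 0 and at 31.4 and 21.8 CPM in positive cells. *Rtp4* was at 2.83 and 3.53 CPM in cells with 0 and at 27.3 and 27.4 CPM in positive cells. *Gbp3* was at 2.41 and 1.88 CPM against 18 and 18.4 CPM. For these genes and for each of the 21 set-B genes, the positive cells were higher in both libraries. All 21 had a positive log2 fold change and an unadjusted p under 0.05 in edgeR's quasi-likelihood test. Such a p, in either direction, was found for 697 of 13349 genes. After Benjamini-Hochberg adjustment 0 of the 21 passed, where 0.00749% of 13349 genes were called higher (1 gene, *Ifit1*, which chose the cells). With the library as a block all 21 rose, where 3.85% of all genes were called higher and 512 of 13349 lower. DESeq2 called 12 of the 21 higher, beside 46 of 13349 genes. The median log2 fold change of set B was 1.48, against -0.0016 over all genes.

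By role, the transcription factors *Irf7*, *Stat2*, *Irf9* and *Irf1* had blocked log2 fold changes of 2.92 ± 0.20, 1.48 ± 0.20, 1.24 ± 0.15 and 0.90 ± 0.28 in positive cells, with blocked edgeR adjusted p from 8.93e-20 to 0.0268. *Irf7* came first and *Irf1* last. Without the block the edgeR adjusted p of these 4 genes were from 0.180 to 0.624. The blocked fit has 4 sums, and its small p rest on a spread shared over genes and not on many cultures. The sensors *Zbp1*, *Dhx58* and *Ifih1* had blocked log2 fold changes of 2.83 ± 0.25, 2.04 ± 0.34 and 1.63 ± 0.21. *Ifi44* was at 5.64 ± 0.56 with the block, with 0.113 and 0.122 CPM in cells with 0 and 6.10 and 5.99 CPM in positive cells. It rested on few UMIs, 21 and 14 in positive cells and 7 and 6 in the many more cells with 0, and it passed the filter on low counts through the positive cells. Positive cells held 63.6% and 51.9% of the *Ifi44* UMIs of Myh11-low cells while they held 4.62% and 3.84% of all UMIs. *Xaf1*, coding for an XIAP-associated factor, was at 8.19 and 8.30 CPM against 35.2 and 35.1 CPM (2.10 ± 0.15). The smallest changes were those of *Ifitm3* (0.65 ± 0.08), at 887 and 772 CPM against 1358 and 1244 CPM, and of *Irf1*. Over set B, positive cells held between 6.73% and 63.6% of a gene's UMIs in replicate 1, with a median of 12.9%, and between 5.86% and 51.9% in replicate 2, with a median of 7.92%.

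**Figure D5:**
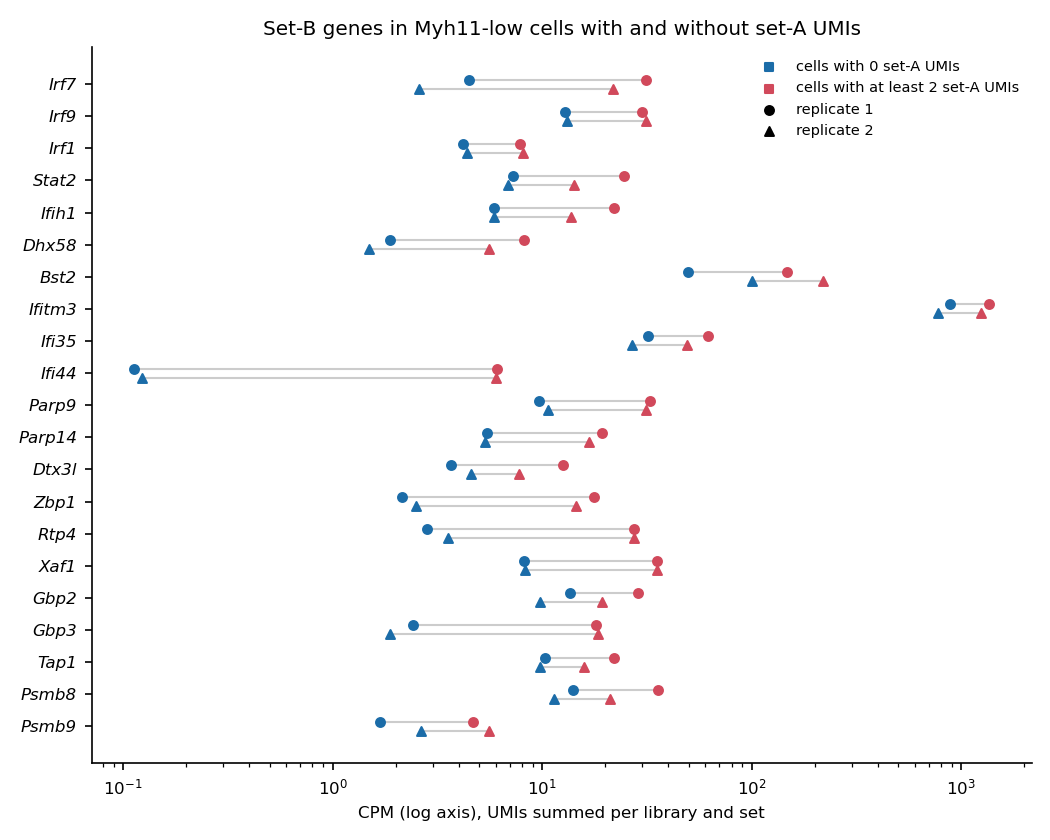
Level (CPM, log axis) of the 21 set-B genes in Myh11-low cells with 0 set-A UMIs (blue) and with at least 2 (red) after thinning, circles for replicate 1 and triangles for replicate 2. The red point lies to the right of the blue one for all 21 genes in both libraries, as for *Rtp4* (2.83 to 27.3 CPM in replicate 1).

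Beside this contrast, the positive cells and the cells with 0 had similar depth, with medians of 20796.5 and 20816 UMIs in replicate 1 and 13809 and 14402 in replicate 2, and median mitochondrial shares of 3.87% and 3.65% and of 5.11% and 5.05%. Cycling markers were lower in the positive cells, at 330 against 731 CPM and 249 against 599 CPM. Without any cell that had a cycling-marker UMI, an alternative added after seeing the data, 16 of the 20 set-B genes tested rose with the block. Beside them 116 of 11507 genes were called higher, and the median log2 fold change of set B was 1.20. The macrophage and leukocyte list was at 62.2 against 64.4 CPM in replicate 1 and at 9.0 against 44.5 CPM in replicate 2. Without cells holding at least 2 UMIs of that list, all 21 set-B genes rose with the block, beside 558 of 13266 genes.

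Other genes of the pathway were read in the same positive cells, with the block. Of 39 other interferon-induced genes 33 rose, among them *Iigp1*, an immunity-related GTPase (46.2 and 45.8 CPM in positive cells against 3.54 and 7.39 CPM in cells with 0, log2 fold change 3.18 ± 0.17), and *Trim30a* (41.9 and 40.7 CPM against 10.5 and 9.40 CPM, 2.05 ± 0.14). Of 12 genes of MHC class I presentation 8 rose, with smaller sizes, as for *H2-K1* (61.6 and 57.8 CPM against 35.1 and 42.7 CPM, 0.64 ± 0.11). Of 13 sensing genes 3 rose, *Ifi204*, *Trim25* and *Ddx58*, coding for the RNA sensor RIG-I, and of 8 negative regulators *Samhd1* and *Socs3*. None of these passed without the block.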

How the data were processed

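VSMC cultures of 2 biological replicates were profiled with 10x Genomics 3' chemistry. The authors aligned the reads with Cell Ranger to mm10 and deposited matrices of raw UMI counts, neither normalized nor filtered for cells. The submitters' processing notes name Cell Ranger 3.0.2, the header of replicate 2 names 3.1.0, and this difference was not resolved. The files summed to 127949633 and 132561822 UMIs. Cells were kept by the study's filters, and doublets were kept. Classes were assigned in the order endothelial, Sox9-positive and Myh11-high or Myh11-low, and cells with 2 to 4 *Myh11* UMIs entered no comparison.

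UMIs were summed per library and class into 8 sums, and into 4 sums for set-A-positive cells and cells with 0. The sums were tested with edgeR 4.0.16 (TMM, filterByExpr, quasi-likelihood, Benjamini-Hochberg over all genes, threshold 0.05) without a block. The test was also run on simulated sums, drawn independently and without a shared library effect. That run cannot show how the test does on sums that share a culture. DESeq2 1.42.0 in R 4.3.3 and a fit with the library as a block were alternatives, as were other filters and leaving out each sum. The sums of a replicate come from 1 culture, and their deviations correlated between classes (r from 0.292 to 0.824 across genes, which are not independent, and 0.484 for positive cells and cells with 0), so that blocked values are given. P-values rest on 2 cultures. Gene positions are from the GENCODE annotation M21 and promoters from RefSeq on GRCm38.p6. Named genes were members, and in each pathway list the 3 with the smallest p. The members, lists and the division into sets A and B were chosen with earlier results of these data known. One gene of the pathway lists is not reported here.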

Additional observations from a re-analysis of the deposited data

Results flagged for a closer look

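Cells with 2 to 4 *Myh11* UMIs entered no comparison, and set-A-positive cells were found among them above the share that 1 common rate would give. They were 13 of 293 cells in replicate 1 (4.44%, exact 95% interval 2.38% to 7.47%) where 1 rate would give 2.81%, and 12 of 319 cells in replicate 2 (3.76%, 1.96% to 6.48%) where it would give 1.06%. The intervals cover counting error among cells of 1 culture and are no test against the share at 1 rate. Each of the other classes was also above its share at 1 rate in both libraries. Myh11-high cells, for example, were at 2.32% and 1.15% where 1 rate would give 0.967% and 0.602%. No difference from the other classes was tested.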

How the results depend on the processing

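In Myh11-low over Myh11-high cells, 497 genes and 2 members were called without it, 3307 and 20 with it, 1355 and 10 by DESeq2, 913 and 4 without the filter on low counts and 777 genes with classes set per 10000 UMIs. Leaving out 1 sum gave 6 to 424 genes and 0 to 3 members, with 6 genes without Myh11-low replicate 2, 28 without Myh11-low replicate 1 or Myh11-high replicate 2 and 170 to 176 without an endothelial sum, and without either Sox9-positive sum *Ifit1* was the 1 member called. Among cells with 0 set-A UMIs after thinning, 484 genes and 0 set-B members were called, and 3265 genes and 10 of 21 members with the block. With the block and without cells holding at least 2 UMIs of the macrophage and leukocyte list, 3488 genes and 23 members were called. These cells are called leukocyte cells below by that rule alone, and cells with 1 such UMI were kept. Sox9-positive over Myh11-low gave 0 genes, 1 with the block (also without leukocyte cells), 2 by DESeq2 and 1 without the filter, and 0 whichever sum was left out. Endothelial over smooth muscle gave 3109 genes, 4842 with the block, 4750 with the block and without leukocyte cells, and 1461 to 2668 without 1 sum. Its members higher went from 8 to between 3 and 9 without 1 sum, and members lower from 1 to 2 with the block, with or without leukocyte cells, and to between 0 and 1 without 1 sum. *Gbp2* changed sign there without endothelial replicate 1, with log2 fold changes from -0.0758 to 0.838 over the sums left out. Set-A-positive over 0 gave 1 gene and 0 set-B members. The block gave 1026 and 21, DESeq2 85 and 12, no filter 235 and 19, and leaving out 1 sum 1 to 2 genes and 0 members. With set B choosing the cells, or at least 5 set-A UMIs without thinning, 0 genes were called. The block without leukocyte cells gave 1095 and 21, and without cycling cells 146 and 16. The settings without leukocyte or cycling cells and among cells with 0 set-A UMIs after thinning were added after seeing the data. The cause of these differences was not tested. Where an arm was left with 1 sum, it was assumed to vary like the others. At the median depth 1 UMI is 45.0 and 61.3 CPM of a cell, so that a cell without a UMI of a gene below that level may still express it.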

Other observations

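Genes outside the lists also differed between set-A-positive Myh11-low cells and those with 0 set-A UMIs, with the library as a block. Among those that rose were *F830016B08Rik* (log2 fold change 4.38 ± 0.44), *Gm4951* (3.53 ± 0.36), *Apol9b* (2.63 ± 0.69), *Phf11b* (2.5 ± 0.78) and *Mndal*, a gene of the interferon-inducible cluster around *Ifi203* (1.78 ± 0.16), where *Apol9b* and its paralogue *Apol9a* may share reads. *Akr1cl*, coding for an aldo-keto reductase (3.59 ± 0.68), the cardiac troponin T gene *Tnnt2* (1.94 ± 0.21) and the neutrophil chemokine *Cxcl5* (1.82 ± 0.26) rose as well. Over all 13349 genes tested, 514 were called higher and 512 lower. Among those outside the lists that fell were *Gsta2* (-8.86 ± 2.04), *Mcam* (-3.25 ± 1.01) and *Crct1* (-2.80 ± 0.32). The size for *Gsta2* is uncertain, as its log2 differences within replicates 1 and 2 were -3.35 and -5.19 when 0.1 CPM was added to each level. Of the marker lists, the cell cycle genes *Cdk1* (-1.28 ± 0.10), *Top2a* (-1.26 ± 0.09) and *Mki67* (-1.16 ± 0.10) fell, with *Cdk1* at 128 and 130 CPM in cells with 0 and 54.6 and 50.9 CPM in positive cells. The lysozyme gene *Lyz2*, abundant in macrophages, fell by 0.69 ± 0.19 on the log2 scale, at 35.4 and 27.6 CPM in cells with 0 and 34 and 3.0 CPM in positive cells. The complement genes *C1qa* (blocked edgeR adjusted p = 0.0367) and *C1qb* (0.0162), expressed by macrophages, also passed as lower, on only 2 and 0 UMIs of each in the positive cells of replicates 1 and 2. In cells with 0 set-A UMIs *C1qa* was at 3.23 and 0.388 CPM and *C1qb* at 3.44 and 0.714 CPM. None of these passed edgeR's quasi-likelihood test without the block, with adjusted p from 0.136 for *Cdk1* and *Mndal* upward.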
